A study of Mus musculus with 6 samples.

Results

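The genes described here are the Wnt ligands, their receptors and antagonists, the proteins that relay or restrain the signal, and the TCF-LEF transcription factors, in a mouse pigment cell line kept with or without the growth factor neuregulin 1 (NRG1). Members were chosen by gene symbol in the platform annotation, from the Wnt, Fzd, Dkk, Sfrp, Nkd, Axin and Dvl families and a set of single genes such as Lrp5, Lrp6 and Lef1. The rule reads names and not values, but it was set with earlier results of these data known. The rule found 59 of the 19938 genes tested, on 60 probe sets, and Wnt4 was the 1 member with a second probe set. Of 19 genes that the rule names singly, 18 had a probe set of their own, and Tcf7 was not analysed here. Melan-Ink4a is a line of melanocytes from the skin of C57BL/6J mice, null for Ink4a-ARF1, so all 6 samples lack that tumour suppressor locus. The 3 NRG1 samples were kept for 21 days with 10 nM NRG1-b1, which acts through the receptor ERBB3, and the 3 untreated samples had none, with no time given for them. Every culture also held 200 nM of the phorbol ester TPA, which activates protein kinase C, and 200 pM cholera toxin, which raises cyclic AMP, and RNA was taken at 90% confluence. Both groups come from 1 cell line, and the labels do not say whether the 3 samples of a group were separate cultures, so each p-value covers the spread among these 6 samples alone, which may be technical.

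Wnt proteins are secreted, lipid-modified signals that bind Frizzled receptors. With the co-receptors LRP5 or LRP6, a bound Frizzled recruits Dishevelled and AXIN to the membrane, the complex of AXIN, APC and kinases stops marking beta-catenin for destruction, and beta-catenin enters the nucleus to switch on genes through TCF-LEF factors. Other Wnts, of which WNT5A is the best studied, act without beta-catenin on cell polarity and calcium. In the neural crest Wnt signals favour the melanocyte fate, and Mitf, the master regulator of that lineage, is a known target of LEF1 and beta-catenin.

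Levels are the deposited log2 values of Affymetrix Mouse Gene 1.0 ST arrays, and differences are NRG1 minus untreated on that log2 scale. A gene counts as called, and the words rose and fell are used, where limma's p, adjusted over all 19938 genes, was under 0.05. Over these genes the correlation was 0.996 to 0.997 within a group and 0.981 to 0.986 between groups. Probe sets differ in how brightly they report a transcript, so a level is compared between samples of 1 gene and does not rank genes. An array has no read depth, and 3 arrays per group set the precision. The 3 NRG1 and 3 untreated values did not overlap for 36.7% of all genes tested, and an exact permutation test of 1 gene cannot go below p = 0.1 in this design.

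NRG1-treated cells had more transcript of the co-receptors Lrp5 and Lrp6, of the receptors Lgr4 and Fzd3, of the factors Lef1 and Tcf7l1 and of the inhibitor Nkd2, and less of Sfrp1, Tnfrsf19, Dkk3, Dact1, Fzd7, Axin2, Wnt5a and Fzd1. These are 15 of the 59 members, 7 that rose and 8 that fell. Over all genes tested, 20.9% were called, 12.3% higher and 8.56% lower, and the members' 25.4% lies near that background. Against a minimum change of 1.2-fold 11 of the 59 passed, 5 higher and 6 lower, where 6.14% of all genes did. The split of all calls depended on the scaling, with 59.0% of them higher in the deposited values and 48.5% after quantile normalization, where 7 members were called higher and 11 lower. The count differed with signal level. Of the 31 members at or above the median level of all genes, 14 were called, 7 in each direction, where 33.3% of all such genes were. Of the 28 members below it, 1 was called, against 8.47% of all such genes. The median change of the members was -0.060 and that of all genes -0.029.

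**Figure D1:**
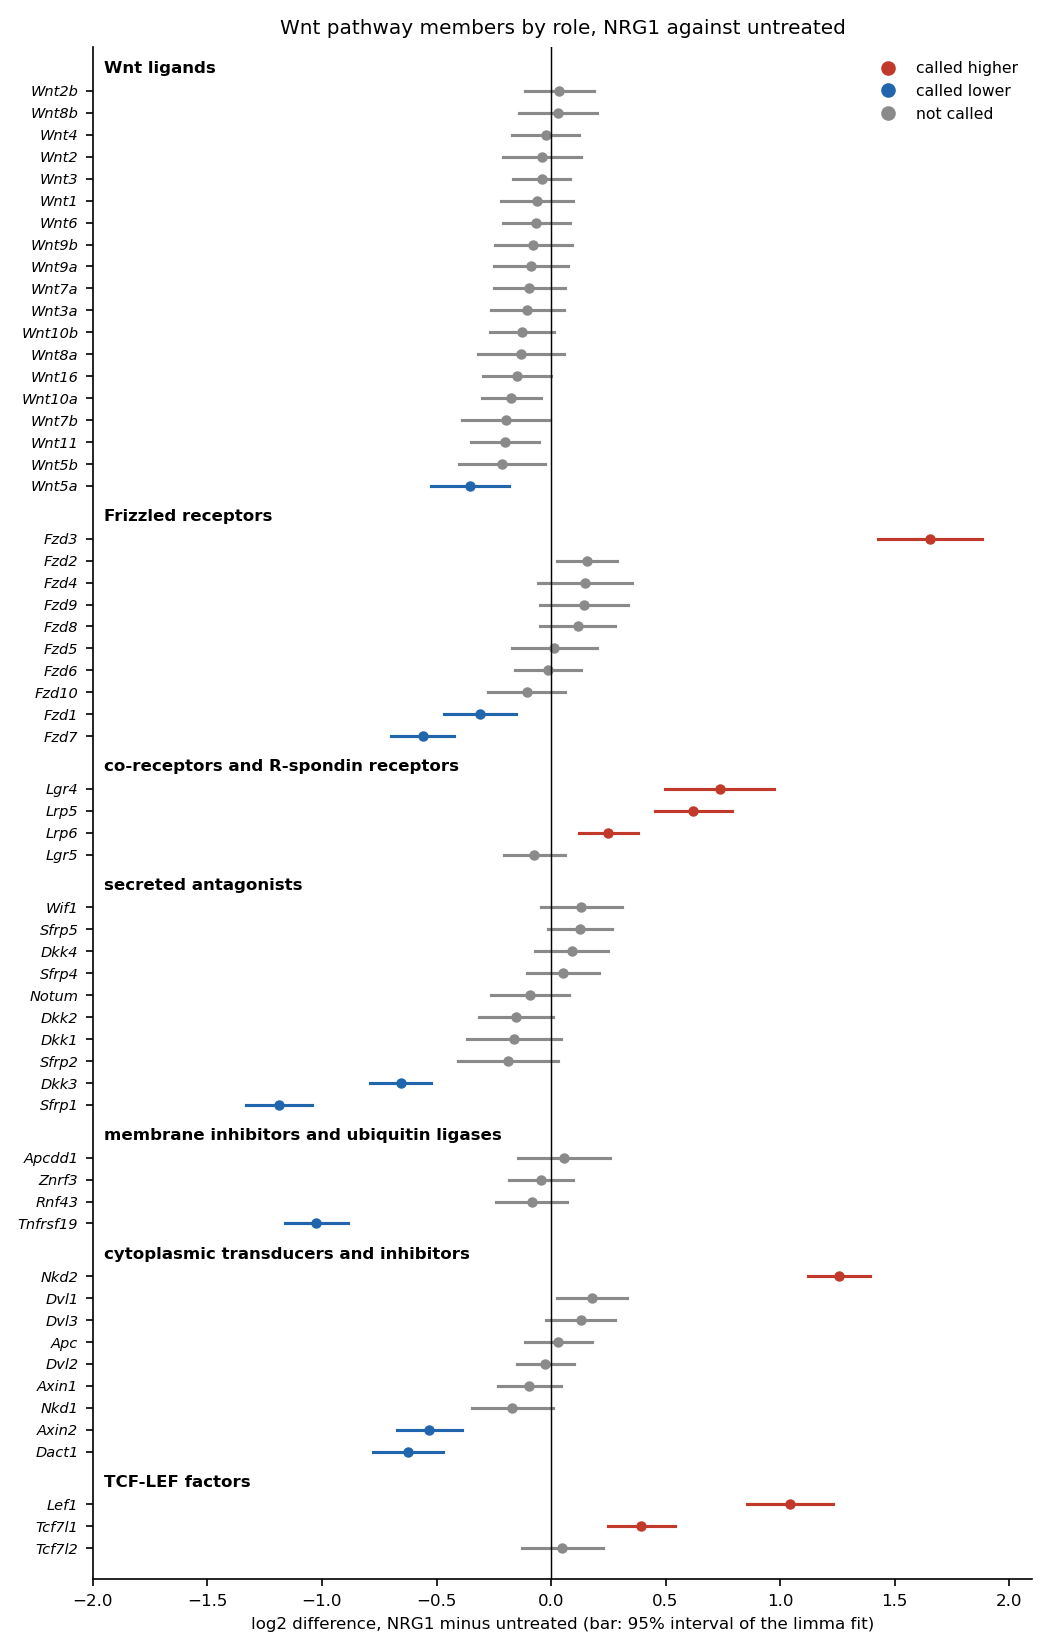
Log2 difference, NRG1 minus untreated, of each of the 59 members with the 95% interval of the limma fit, ordered within 7 roles. Red points are the 7 members called higher, blue the 8 called lower and grey the 44 not called; the ligands lie close to 0, and the widest spread is among the Frizzled receptors, from Fzd7 at -0.56 to Fzd3 at 1.66.

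Of the 19 Wnt ligand genes, 1 fell and 0 rose (limma; 6 of them had an unadjusted p under 0.05, all lower, where 32.0% of all genes had one). The called share was 5.26%, beside 20.9% of all genes and 8.47% of those below the median level. Wnt5a, the ligand of the beta-catenin-independent branch, was at 6.16, 6.24 and 6.29 with NRG1 and at 6.48, 6.54 and 6.73 without. All 3 NRG1 values lay under all 3 untreated values. The difference was -0.35 ± 0.076 (SE), or 1.28-fold (limma, adjusted p = 0.00767), and it was not called against a minimum change of 1.2-fold (limma, adjusted p = 1 there; 0.00276 to 1 across its 15 settings). Its paralogue Wnt5b had a difference of -0.21 (limma, adjusted p = 0.107), with untreated replicate 2, at 7.53, inside the range of the NRG1 samples, 7.34 to 7.55. Nearest to the threshold was Wnt10a, at 7.54, 7.49 and 7.52 with NRG1 and 7.70, 7.64 and 7.73 without. Its groups did not overlap, and the difference was -0.17 ± 0.058 (SE; limma, adjusted p = 0.061). Wnt11, at -0.20, had an adjusted p of 0.0612 by limma, and its groups did not overlap either.

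Most ligand genes gave weak signals and small differences. The means of the 19 ran from 5.27 to 8.08, and 13 of them lay below the median of all genes, where small differences can be compressed. Differences were below 0 for 17 of 19, with a median of -0.095, and this count was also 17 after quantile normalization, after centring and with array weights. Over all genes below the median level, 68.5% of differences were below 0, with a median of -0.049. The positive differences in the deposited values were those of Wnt2b (0.036) and Wnt8b (0.031). Which ligands were positive depended on the setting, since Wnt2b, Wnt8b, Wnt2 and Wnt4 each changed sign under 1 or 2 of the alternatives. The count below 0 ran from 16 to 19 over the 14 alternatives that tested all 19 ligands, with 19 reached without NRG1 replicate 2. Untreated replicate 2 had the lowest of the 3 untreated values for 16 of the 19 ligand genes, and for 58.1% of all genes below the median level. Without that array 12 members were called lower, the original 8 among them, with Wnt10a, Wnt11, Wnt5b and Wnt7b added. The ligands with the best known roles in beta-catenin signalling, Wnt1 (-0.060), Wnt3a (-0.10) and Wnt3 (-0.041), were not called.

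Of the 10 Frizzled receptors, which bind Wnts through a cysteine-rich domain outside the cell, 1 rose, 2 fell and 7 were not called. That is 30.0% called, beside 20.9% of all genes and 33.3% of those at or above the median level. Only 2 of the 10 lay below that level. Fzd3, known for its part in axon guidance and planar cell polarity, was at 8.83, 8.81 and 8.79 with NRG1 and at 7.29, 7.28 and 6.89 without. The NRG1 values were nearly equal, while untreated replicate 3 stood below the other untreated samples, and the gap between the groups was far wider than either spread. The difference of 1.66 ± 0.10 (SE), a 3.15-fold rise, was the widest of any member (limma, adjusted p = 1.49e-06). Without any 1 array or under any other setting it stayed between 1.52 and 1.73.

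Fzd7, a receptor that takes part in both the beta-catenin and the polarity branch, went the other way. It was at 9.91, 9.92 and 9.84 with NRG1 and at 10.38, 10.49 and 10.47 without. The groups did not overlap, and the difference was -0.56 ± 0.061 (SE), 1.48-fold (limma, adjusted p = 8.77e-05). Fzd1, its close relative, was at 8.55, 8.74 and 8.62 with NRG1 and at 8.97, 8.87 and 9.00 without. Here the highest NRG1 value and the lowest untreated value were close, and the fall of 0.31 (limma, adjusted p = 0.00961) was not called against a minimum change of 1.2-fold (limma, adjusted p = 1 there; 0.00122 to 1 across its 16 settings). Fzd2, with non-overlapping groups at 7.86 to 7.96 and 7.71 to 7.78, differed by 0.16 (limma, adjusted p = 0.095). The others, Fzd4, Fzd5, Fzd6, Fzd8, Fzd9 and Fzd10, had differences from -0.11 for Fzd10 to 0.15 for Fzd4, and their groups overlapped.

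The co-receptors that link a Wnt-bound Frizzled to AXIN rose, as did 1 receptor for R-spondins. R-spondins are secreted proteins that prolong Wnt signalling by removing the ubiquitin ligases RNF43 and ZNRF3 from the membrane. Lrp5 was at 9.77, 9.80 and 9.66 with NRG1 and at 9.01, 9.25 and 9.10 without. Every NRG1 value was above every untreated value, a difference of 0.62 ± 0.075 (SE), 1.54-fold (limma, adjusted p = 0.000179). Lrp6, its partner in function, was at 10.47, 10.52 and 10.54 against 10.29, 10.28 and 10.22. The difference was smaller, 0.25 ± 0.058 (SE; limma, adjusted p = 0.0118), though the groups did not overlap. That call ended without NRG1 replicate 3, at 0.23 (limma, adjusted p = 0.0517; 0.000641 to 1 across its 16 settings), and against a minimum change of 1.2-fold.

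Lgr4, an R-spondin receptor, was at 7.78, 7.72 and 7.61 with NRG1 and at 6.90, 7.23 and 6.78 without. Untreated replicate 2 was the highest of its group and still under all NRG1 values, and the rise was 0.74 ± 0.11 (SE), 1.67-fold (limma, adjusted p = 0.000686). Lgr5, its relative and a stem cell marker in several epithelia, lay at 5.72 to 5.81 with NRG1 and 5.80 to 5.88 without, and was not called. Its mean was under the lower quartile of all genes, 5.96. The other R-spondin receptor, Lgr6, belongs to the further genes of the pathway described below and rose by 0.67.

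Among the 10 secreted antagonists, 2 fell and 0 rose (limma; at an unadjusted p under 0.05 the counts were the same). Over all genes 20.9% were called and 8.56% were called lower, so the called share of the antagonists lies near the background. SFRP proteins carry a Frizzled-like domain and bind Wnts outside the cell. Sfrp1 was at 8.01, 7.88 and 7.90 with NRG1 and at 9.07, 9.19 and 9.10 without. The groups were more than 1 unit apart, and the fall of 1.19 ± 0.064 (SE), 2.28-fold, was the steepest of any member (limma, adjusted p = 6.81e-07). Dkk3, a divergent member of the Dickkopf family, was at 10.53, 10.58 and 10.50 against 11.22, 11.23 and 11.13. Both groups were tight and did not overlap, and Dkk3 fell by 0.66 ± 0.060 (SE), 1.58-fold (limma, adjusted p = 2.73e-05). Dkk1, Dkk2 and Dkk4, of which DKK1 blocks LRP5 and LRP6, had differences of -0.16, -0.15 and 0.091 and were not called. Of the antagonists that were not called Dkk2 had the smallest p (limma, adjusted p = 0.176). Sfrp2, Sfrp4, Sfrp5, the Wnt-binding Wif1 and the deacylase gene Notum ranged from -0.19 for Sfrp2 to 0.13 for Wif1. Of the 10 antagonists, 8 had means below the median of all genes, all but Sfrp1 and Dkk3.

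Of 4 genes for inhibitors and related proteins at the membrane, 1 fell. Tnfrsf19, a receptor of the tumour necrosis factor receptor family that is known as a Wnt target gene, was at 7.82, 7.77 and 7.77 with NRG1 and at 8.74, 8.84 and 8.86 without. The values within each group were close together, and the fall was 1.02 ± 0.061 (SE), 2.03-fold (limma, adjusted p = 1.33e-06). The ubiquitin ligases Rnf43 (-0.085) and Znrf3 (-0.043), which clear Frizzleds from the membrane, and the Wnt-binding Apcdd1 (0.057) were not called, with overlapping groups and mean levels below the median of all genes.

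Within the cell the feedback inhibitors split. Of 9 cytoplasmic transducers and inhibitors, 1 rose and 2 fell (33.3% called), beside 20.9% of all genes. NKD1 and NKD2 bind Dishevelled and restrain the signal, AXIN2 is the induced counterpart of AXIN1 and its gene is the standard readout of beta-catenin activity, and DACT1 is a Dishevelled-binding regulator. Nkd2 was at 9.97, 9.83 and 9.90 with NRG1 and at 8.64, 8.65 and 8.64 without. The untreated values were almost identical, and the rise of 1.26 ± 0.060 (SE), 2.39-fold, had the smallest p of any member (limma, adjusted p = 2.71e-07). Nkd1 was at 6.68, 6.85 and 6.94 against 6.97, 6.93 and 7.09. NRG1 replicate 3 lay inside the untreated range, and the difference of -0.17 had a 95% interval from -0.35 to 0.007 (limma, adjusted p = 0.173).

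Axin2 was at 7.57, 7.62 and 7.67 with NRG1 and at 8.23, 8.11 and 8.11 without. All NRG1 values were lower, by 0.53 ± 0.064 (SE) on average, 1.45-fold (limma, adjusted p = 0.000175). Dact1 was at 8.26, 8.35 and 8.20 against 8.96, 8.92 and 8.80. It also fell in every comparison of an NRG1 with an untreated sample, by 0.62 ± 0.069 (SE), 1.54-fold (limma, adjusted p = 9.41e-05). The core components showed smaller differences. Axin1 was at -0.094 and Apc at 0.031, with 95% intervals from -0.23 to 0.042 and from -0.11 to 0.18. Among the Dishevelled genes, Dvl1 differed by 0.18 (limma, adjusted p = 0.0951), Dvl3 by 0.13 and Dvl2 by -0.026, none of them called. Dvl1 was called without untreated replicate 2 (0.22; limma, adjusted p = 0.0467) and under 3 further settings, with values of 0.0148 to 1 across all 16.

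The TCF-LEF factors bind DNA through an HMG box and recruit beta-catenin as an activator or Groucho proteins as repressors. Of the 3 measured, all at or above the median level, 2 rose, beside 20.5% of all such genes. Lef1 was at 9.03, 9.10 and 8.78 with NRG1 and at 7.88, 7.99 and 7.92 without. NRG1 replicate 3 was the lowest of its group but well above every untreated value, and the rise was 1.04 ± 0.085 (SE), 2.06-fold (limma, adjusted p = 1.19e-05). Tcf7l1, a factor that acts mostly as a repressor, was at 8.81, 8.94 and 8.89 against 8.53, 8.52 and 8.40. It rose by 0.39 ± 0.065 (SE), 1.31-fold, with no overlap (limma, adjusted p = 0.00161), but was not called against a minimum change of 1.2-fold (limma, adjusted p = 0.419 there; 9.20e-05 to 0.419 across its 16 settings). Tcf7l2, the factor best known from the intestine, was at 8.05, 8.24 and 7.99 against 8.14, 8.03 and 7.97. Those groups overlapped, the difference of 0.050 had a 95% interval from -0.13 to 0.23, and its sign turned after quantile normalization (-0.006).

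**Figure D2:**
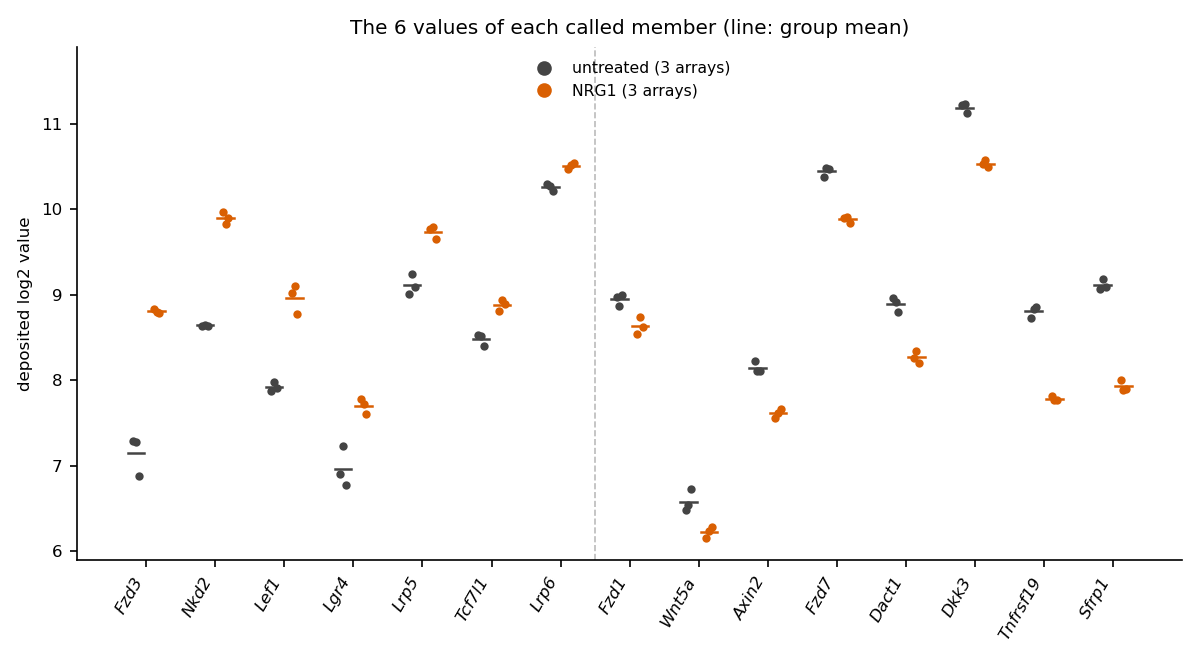
The 6 deposited log2 values of each of the 15 called members, untreated in grey and NRG1 in orange, with a line at each group mean; the dashed line separates the 7 that rose from the 8 that fell. In all 15 the 3 NRG1 values lie on 1 side of the 3 untreated values, as they do for 36.7% of all genes tested. The 15 were picked by their adjusted p, which favours such separation, so it adds no support of its own. The gap between the nearest values of the groups runs from 0.13 for Fzd1 to 1.496 for Fzd3.

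TCF-LEF factors recognise a short motif with the core CTTTGA (read on the other strand as TCAAAG), and feedback genes of the pathway are classic carriers of it, so the promoter windows of the members were searched. A window held 250 bases before and 50 after a RefSeq transcript start (GRCm38.p6), and 39 of the 59 members had one, among them 9 of the 15 called. The core was found in 16.0% of all 32851 windows and in 6 of the 48 member windows (12.5%), a share no higher than the background. The stricter CTTTGAT, which contains the core, was in 3.7% of all windows and in 3 of the 48 member windows (6.2%). By gene, the core was in 18.2% of all genes with a window and in 15.4% of the 39 members. Among called members with a window the core lay near a start of Lef1 (1 of 4 that rose) and of Tnfrsf19 and Fzd1 (2 of 5 that fell). The 250 bases before the start are printed for the first 2 of these, 1 that rose and 1 that fell, and for Axin2 as the standard target gene, which has no match in its window. Capitals mark the core.
Lef1, the start farthest downstream of 4: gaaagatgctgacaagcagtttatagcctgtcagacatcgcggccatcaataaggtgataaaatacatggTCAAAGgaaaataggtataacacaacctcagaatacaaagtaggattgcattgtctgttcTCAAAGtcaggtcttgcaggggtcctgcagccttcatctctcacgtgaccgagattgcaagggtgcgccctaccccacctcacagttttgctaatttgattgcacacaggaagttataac
Tnfrsf19, 1 of 2 starts: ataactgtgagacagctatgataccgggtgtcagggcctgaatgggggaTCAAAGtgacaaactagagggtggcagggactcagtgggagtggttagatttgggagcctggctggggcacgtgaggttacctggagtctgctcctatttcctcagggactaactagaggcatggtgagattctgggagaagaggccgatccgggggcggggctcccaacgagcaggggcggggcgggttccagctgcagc
Axin2: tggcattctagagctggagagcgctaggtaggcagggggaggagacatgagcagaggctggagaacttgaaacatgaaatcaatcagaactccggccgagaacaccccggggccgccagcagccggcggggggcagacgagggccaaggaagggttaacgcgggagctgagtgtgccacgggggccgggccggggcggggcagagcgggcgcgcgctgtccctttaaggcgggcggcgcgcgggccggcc
In the Lef1 window the 2 matches began at positions -180 and -120 from the start, both on the other strand, and the other 3 Lef1 windows had none. The Tnfrsf19 match at -201 was the stricter form. Which start the probe sets read was not known here. A shorter stretch of 40 bases shows the matches of Fzd1, which fell, and of 3 members that were not called.
Fzd1 at -242: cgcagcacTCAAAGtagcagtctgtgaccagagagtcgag
Dkk1 at -174: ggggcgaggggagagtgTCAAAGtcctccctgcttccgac
Dkk1 at -117: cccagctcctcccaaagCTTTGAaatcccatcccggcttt
Wnt11 at -50: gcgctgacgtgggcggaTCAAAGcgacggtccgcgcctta
Wnt5b at -71: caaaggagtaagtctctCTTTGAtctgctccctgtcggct
Matches thus occurred beside members that rose, that fell and that were not called, and those of Wnt11 and Wnt5b were of the stricter form. A match is a run of letters and shows no binding.

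**Figure D3:**
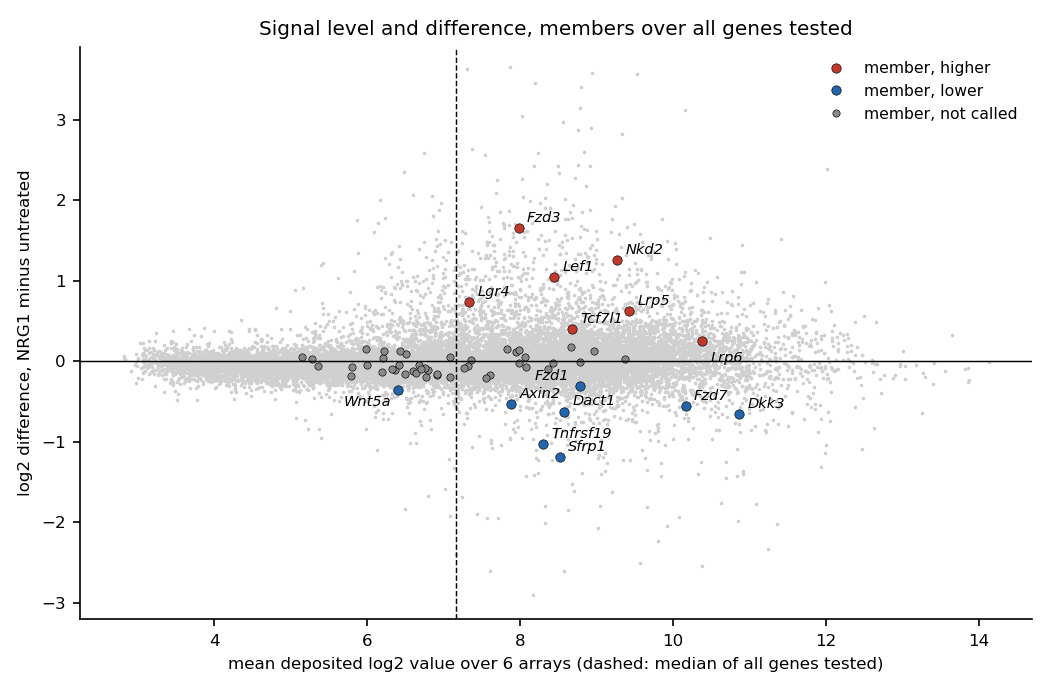
Mean deposited log2 value over the 6 arrays against the log2 difference, NRG1 minus untreated, for all 19938 genes (light grey) and the 59 members (outlined points, red called higher, blue called lower). The called members other than Wnt5a lie to the right of the dashed median level of all genes, 7.17.

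Further genes of the pathway were taken from 5 lists, leaving out the members. Of 160 entries 155 were measured, 33 rose and 19 fell, which is 33.5% called, where 20.9% of all genes were. At or above the median level of all genes 25 of the 102 pathway genes there rose and 16 fell (40.2% called), where 33.3% of all such genes were, and below it 8 of 53 rose and 3 fell (20.8%), where 8.47% were. Against a minimum change of 1.2-fold 15 rose and 7 fell, and of the genes named below Gpc3, Shisa2, Wls, Csnk1e, Ppp2ca, Cul1, Frat1, Apc2, Tle4, Nlk, Daam1 and Camk2d were not called there. The mean levels of the 155 ran from 5.36 to 13.88. The median change was 0.019, with 68 of the 155 differences below 0. After quantile normalization it was -0.007, with 80 below 0.

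Among 30 genes of Wnt secretion, other receptors and secreted inhibitors, 4 rose and 5 fell, with a median of -0.038. That is 30.0% called, beside 20.9% of all genes. Of the 15 at or above the median level 3 rose and 3 fell, where 33.3% of all such genes were called. Tpbg, a membrane protein that interferes with LRP6, was at 9.13 ± 0.061 without NRG1 and 8.09 ± 0.15 with it (SD, 3 arrays each), a fall of 1.05 (limma, adjusted p = 8.34e-06). Rspo2, an R-spondin ligand, fell 2.01-fold and Ror1, a receptor tyrosine kinase for WNT5A, by 0.64. The ligand Wnt5a and its receptor Ror1 were both lower, while an R-spondin ligand was lower and its receptors Lgr4 and Lgr6 were higher. The receptor genes Ror2 (0.001) and Ryk (0.074) were not called, nor were Rspo1, Rspo3, Rspo4 and the receptor gene Lgr5. Wnt5a and Rspo2, with means of 6.41 and 6.56, lay below the median level of all genes, 7.17. Besides Lgr6 the rises were those of Kremen1 (0.60), a partner of DKK1 in removing LRP6, of the glypican gene Gpc3 (0.38) and of Shisa2 (0.35). Wls, the carrier that brings Wnts to the cell surface, fell by 0.20 (limma, adjusted p = 0.0307), a call kept under 7 of 16 settings (0.00235 to 1).

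Beta-catenin itself did not pass the test. Ctnnb1 had means of 12.15 ± 0.018 in NRG1 samples and 12.13 ± 0.037 in untreated ones (SD, 3 arrays each), which differ by 0.017 (limma, adjusted p = 0.882). Its level is high on the scale, where array signals can be compressed, which was not tested for this gene. An array does not read beta-catenin protein, through which the pathway is controlled. Of the 24 genes for beta-catenin, its kinases and its degradation, 3 rose and 2 fell, with a median of 0.055. That is 20.8% called, beside 20.9% of all genes. Of the 23 at or above the median level 17.4% were called, beside 33.3% of all such genes. Csnk1e, a kinase that acts on Dishevelled, and Ppp2ca, the catalytic subunit of phosphatase 2A, both rose by 0.36, and Cul1, the scaffold of the ligase that marks beta-catenin, by 0.24. The falls of Frat1 (-0.27), whose product binds GSK3, and Apc2 (-0.21) were called under 7 of 15 and 8 of 16 settings. Cul1 was not called after quantile normalization (0.15), without NRG1 replicate 3 (0.22) or without untreated replicate 1 (0.23).

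Of 28 nuclear partners of beta-catenin and TCF, 8 rose and 1 fell, with a median of 0.13. That is 32.1% called, beside 20.9% of all genes. Of the 24 at or above the median level 29.2% were called, beside 33.3% of all such genes. Tle1, a Groucho corepressor that binds TCF-LEF factors, rose from 6.50 ± 0.21 to 7.55 ± 0.085 (SD, 3 arrays each), 2.07-fold (limma, adjusted p = 3.16e-05), and Tle4, of the same family, by 0.43. Tbl1xr1, which takes part in corepressor exchange, rose by 0.77. Nlk, a kinase that loosens TCF-LEF from DNA, fell by 0.34. The list's median was 0.13 against -0.029 for all genes, and 24 of its 28 genes were at or above the median level of all genes, where the median change was 0.008.

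In the planar polarity and calcium branches 10 of 35 measured genes rose and 4 fell, beside the 20.9% called over all genes. Of the 21 at or above the median level 52.4% were called, beside 33.3% of all such genes. Vangl2, a core polarity protein, rose by 0.62, whereas Prickle1, which works with it, fell by 0.72 (limma, adjusted p = 2.31e-05), and the formin gene Daam1 fell by 0.38. On the calcium side the phospholipase gene Plcb1 rose by 0.73 and Nfatc2, a calcineurin-controlled transcription factor, by 0.80, and the kinase gene Camk2d fell by 0.40.

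Known targets of beta-catenin and TCF moved both ways, with 8 of 38 measured genes higher, 7 lower and a median of -0.053. The called share was 39.5%, beside 20.9% of all genes. Of the 19 at or above the median level 68.4% were called, beside the same 33.3%. Jun rose 3.03-fold, the cyclin gene Ccnd1 2.87-fold and Ccn1, a matrix signalling gene, 2.33-fold (limma, adjusted p = 2.71e-07, 2.58e-07 and 1.36e-06). These 3 are also known to respond to growth factors through the ERK pathway, and what moved them here was not tested. Id2, an inhibitor of basic helix-loop-helix factors, fell by 1.40, the hepatocyte growth factor receptor gene Met by 0.83 and Mitf by 0.53. Mitf and Dct, both called lower in this list, are also counted among the melanocyte markers below.

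**Figure D4:**
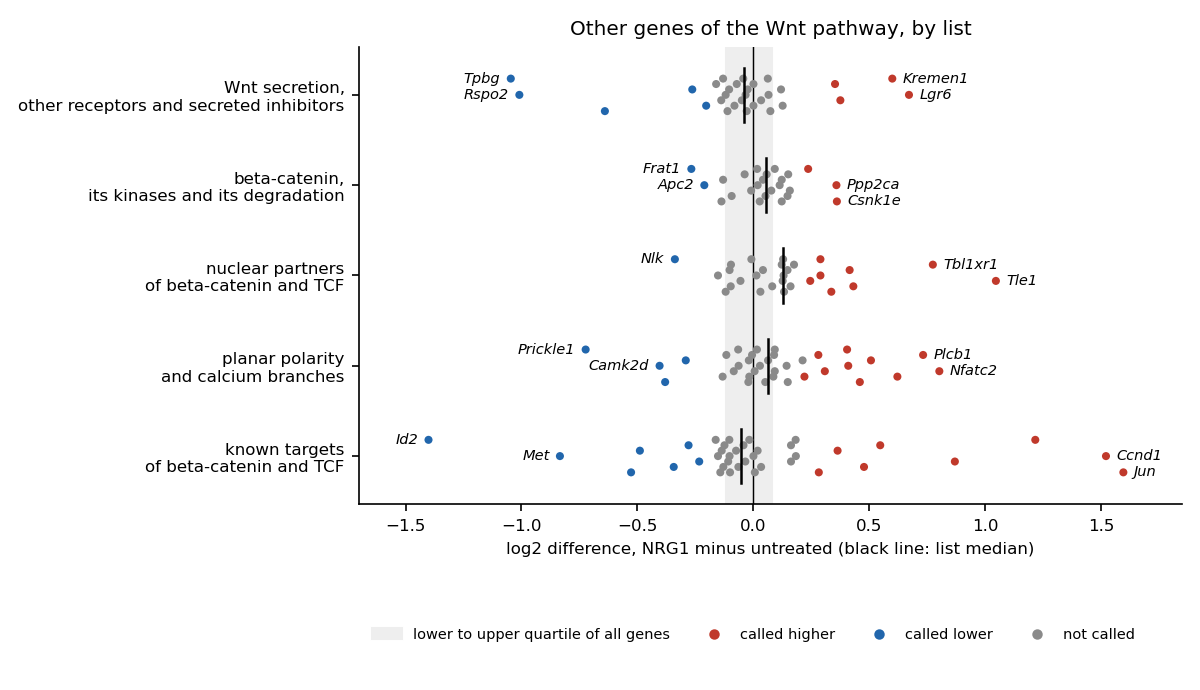
Log2 difference, NRG1 minus untreated, of the 155 measured genes in 5 lists of the Wnt pathway, members left out. Points are genes (red called higher, blue called lower, grey not called), black lines list medians and the grey band the range between the lower and upper quartile of all genes tested; the nuclear partners have the highest median (0.13), and the targets reach from Id2 at -1.40 to Jun at 1.60.

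Markers of pigment cells gave strong signals. The 10 melanocyte markers averaged 12.25 to 12.28 over the untreated arrays and 11.53 to 11.59 over the NRG1 arrays. Of these, 9 of 10 fell with NRG1, where 12.9% of all genes at or above the median level fell. The keratinocyte, endothelial and immune lists averaged 5.86 to 6.35 on every array, and 1 of their 27 measured genes was called, Cd68. Of 10 fibroblast markers, averaging 6.72 to 6.94, 2 rose, Col1a1 by 0.86 and Fbln1 by 0.51, and the mean levels of the 10 ran from 4.36 to 8.62. Of 7 measured Schwann cell markers, averaging 8.18 to 8.25, 2 rose and 1 fell. The part of pigment state or of other cells in the Wnt differences was not tested, and in a bulk sample fewer cells of a type and less RNA per cell cannot be told apart.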

How the data were processed

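Total RNA (200 ng per sample) was hybridised to 6 arrays, per the labels. The values are log2 signals deposited by the authors, who named GCOS and RMA as tools, per the submitters' processing notes; no settings are stated in the labels. The values ran from 2.34 to 14.59. RMA compresses weak and saturated signals, so differences there can be understated.

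Probe sets with exactly 1 gene in the platform annotation (21789 of 35557; 1621 had several and 12147 were unnamed here) were kept, symbols were updated by Entrez number to RefSeq (GRCm38.p6; 21698 matched), and the brightest of a gene's probe sets by its 6-array mean was tested. No level filter or pseudocount was used. The fit was limma 3.58.1 in R 4.3.3 (lmFit, eBayes, 2-sided, Benjamini-Hochberg over all genes), tested on simulated data. Groups came from sample titles, and 0 columns were left without a sample.

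Members and lists were chosen with earlier results of these data known. Named are all called members, the TCF-LEF, Axin2 and Nkd genes, the member nearest the threshold and the brightest of each role, Ctnnb1, and up to 3 called genes per list and direction; some others are added, and were chosen after their values were seen. Alternatives were quantile normalization, median centring, 2 level filters, averaged or all probe sets, a robust variance prior with an intensity trend, array weights, a replicate block, a 1.2-fold minimum change and leaving out each array.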

Additional observations from a re-analysis of the deposited data

How the results depend on the processing

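Under all 16 alternatives the 15 called members kept their direction, and 14 of them kept their call in every fit in which they were tested except that against a minimum change of 1.2-fold, which 11 passed; the other was Lrp6, described above. Counts of called members stayed within 1.5 times of 7 higher and 8 lower, except with array weights, where 13 were lower and 10 higher. Leaving out single arrays gave 6 to 8 higher and 8 to 12 lower members, 29 to 34 higher and 14 to 17 lower pathway genes, and 3116 to 4397 called genes in all. Against the 1.2-fold minimum 1225 genes passed in place of 4168, and 15 higher and 7 lower pathway genes in place of 33 and 19. Array weights ran from 0.423 for untreated replicate 2 to 3.43 for untreated replicate 1.

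The sample titles number the replicates and do not say whether equal numbers were paired. Deviations of same-numbered samples from their group means had correlations of -0.095, -0.164 and 0.074. Those of differently numbered samples ran from -0.196 to 0.247, so these values cannot settle it. With the replicate block 7 members were higher and 8 lower. Of the pathway genes 33 were higher and 16 lower there, and 3609 genes were called in all. Of the 59 members, 10 changed sign under at least 1 alternative, none of them called: Wnt2, Wnt2b, Wnt4, Wnt8b, Fzd5 (-0.056 to 0.098), Fzd6 (-0.079 to 0.045), Sfrp4 (-0.003 to 0.105), Apcdd1 (-0.026 to 0.151), Apc and Tcf7l2; signs of the unnamed pathway genes were not scanned. Among the named genes, Apc was at -0.039 after quantile normalization and from -0.013 (without untreated replicate 3; -0.001 without NRG1 replicate 3) to 0.058 with single arrays left out, Ctnnb1 ran from -0.00043 (without untreated replicate 3) to 0.036, and Tcf7l2 was at -0.006 after quantile normalization, -0.015 with array weights and from -0.024 (without NRG1 replicate 2) to 0.102. The cause was not tested. Wnt5a, below the median level, was not in the fit without the dimmer genes, and weak signals limit most ligands and antagonists.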

Other observations

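In the RefSeq gene order of GRCm38.p6, 4 pairs of ligand genes lie next to each other with no coding gene between them. Differences were below 0 for 17 of all 19 ligand genes, neighbours or not. Both genes of each pair had small negative differences that were not called, with Wnt6 at -0.064 and Wnt10a at -0.17, Wnt3a at -0.10 and Wnt9a at -0.086, Wnt9b at -0.077 and Wnt3 at -0.041, and Wnt10b at -0.13 and Wnt1 at -0.060.

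The probe sets of Wnt4 gave differences of opposite sign, -0.024 on the brighter and 0.17 on the other, and neither was called among all probe sets (limma, adjusted p = 0.865 and 0.473).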
